A study of Mus musculus with 5 samples.

Results

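The genes described here are the Rap guanine nucleotide exchange factors other than C3G (Rapgef2, Rapgef3, Rapgef4, Rapgef5 and Rapgef6) and the GTPase-activating proteins (GAPs) of Rap (Rap1gap, Sipa1, Sipa1l1, Sipa1l2 and Sipa1l3). They were chosen by symbol, as enzymes that act on the same GTPases as C3G, and they are 10 of the 55147 gene symbols of the expression table, 5 exchange factors and 5 GAPs. All 10 had a value and all 10 entered the test across 12518 genes.

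Total RNA was sequenced from E14Tg2a mouse embryonic stem (ES) cells, a feeder-independent line that was grown on gelatin in serum with LIF. Beyond the making of the C3G KO cells, no treatment was given. The 3 WT samples are the parent cells, and the 2 C3G KO samples carry a CRISPR knock-in of a puromycin resistance cassette in place of exons of C3G, whose gene is Rapgef1. In the study, knockout cells were nucleofected, selected with puromycin and grown from picked colonies, and the WT samples are not its vector control. The labels do not say which clone or clones the C3G KO samples are. A clone, these steps and the genotype therefore cannot be told apart. Values are in TPM, a unit in which the reads of a transcript are divided by its length and by the sample total. No read numbers can be had from TPM, and the depth of the samples is unknown.

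Rap proteins are small GTPases of the Ras family that switch between a GDP-bound and a GTP-bound state. Exchange factors load them with GTP and GAPs speed up GTP hydrolysis, so both enzyme classes set how much active Rap a cell holds. Rap signalling is best known for its control of integrin and cadherin adhesion.

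Rapgef1 (ENSMUSG00000039844, chr2:29619720-29740978 of GRCm38) had 11.6, 10.3 and 9.64 TPM in WT replicates 1 to 3 and 3.92 and 5.55 TPM in C3G KO replicates 1 and 2. Both C3G KO samples lay below all WT samples. The sum over the gene also counts exons outside the replaced region, and most genes were lower without overlap as deposited, so this is only a weak check of the labels. The share of small non-coding RNAs in the TPM total was 62.9, 63.5 and 67.2% in WT and 77.8 and 69.6% in C3G KO, and the larger this share, the lower the TPM left for other genes. Median-of-ratios scaling, in which the values of a sample are divided by the median ratio of its genes to their geometric means, moved the median log2 fold change over all genes from -0.55 to 0.0052. Fold changes are therefore given on both scales, and the scaled values are the main ones. After scaling Rapgef1 had 8.66, 8.45 and 8.73 TPM in WT and 6.34 and 6.13 TPM in C3G KO, a log2 fold change of -0.41 (limma adjusted p = 0.00444, SE 0.059). Correcting for the length and GC content of transcripts left a log2 fold change of -0.11 (limma adjusted p = 0.239).

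On the scaled values, 1 of the 10 genes was higher in C3G KO cells (Rapgef4), 2 were lower (Rapgef2 and Rapgef3) and 7 did not pass an adjusted p of 0.05. Of all genes tested, 14.1% were higher and 16.6% lower by the same rule, so the count of lower genes was close to the background. On the values as deposited, 9 of the 10 were lower and 1, again Rapgef4, was higher, beside 56.8% lower and 1.45% higher among all genes tested. The deposited count of lower genes fell to 2 without C3G KO replicate 1, 2 without WT replicate 1 and 1 without WT replicate 2, where 19.8, 20.6 and 17% of all genes were lower. It was 9 without C3G KO replicate 2 and 8 without WT replicate 3, where 81.7 and 40.4% of all genes were lower. Rapgef3 was the only one of the 9 to pass with each of the 5 samples left out in turn, and without WT replicate 2 none of the other 8 passed. The values of C3G KO and WT samples did not overlap for 6 lower genes and 1 higher gene after scaling, where 29.3% of all tested genes were lower and 29.5% higher without overlap. As deposited they did not overlap for 9 lower genes and 1 higher gene, beside 75.7% and 1.49%. Rapgef4 reached 1 TPM, the minimum for testing, only in the C3G KO samples and Rapgef3 only in the WT samples, so these 2 could enter the test only through the group where they were high, and counts that include them support nothing. Of the other 8 genes 1 was lower and none higher after scaling in limma (5 lower and none higher at an unadjusted p under 0.05, beside 22.3% and 21.6% of all genes), and all 8 were lower as deposited. Over these 8 the median log2 fold change was -0.16 scaled and -0.70 as deposited. In bulk RNA, fewer cells that express a gene and less of its RNA per cell cannot be told apart.

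**Figure D1:**
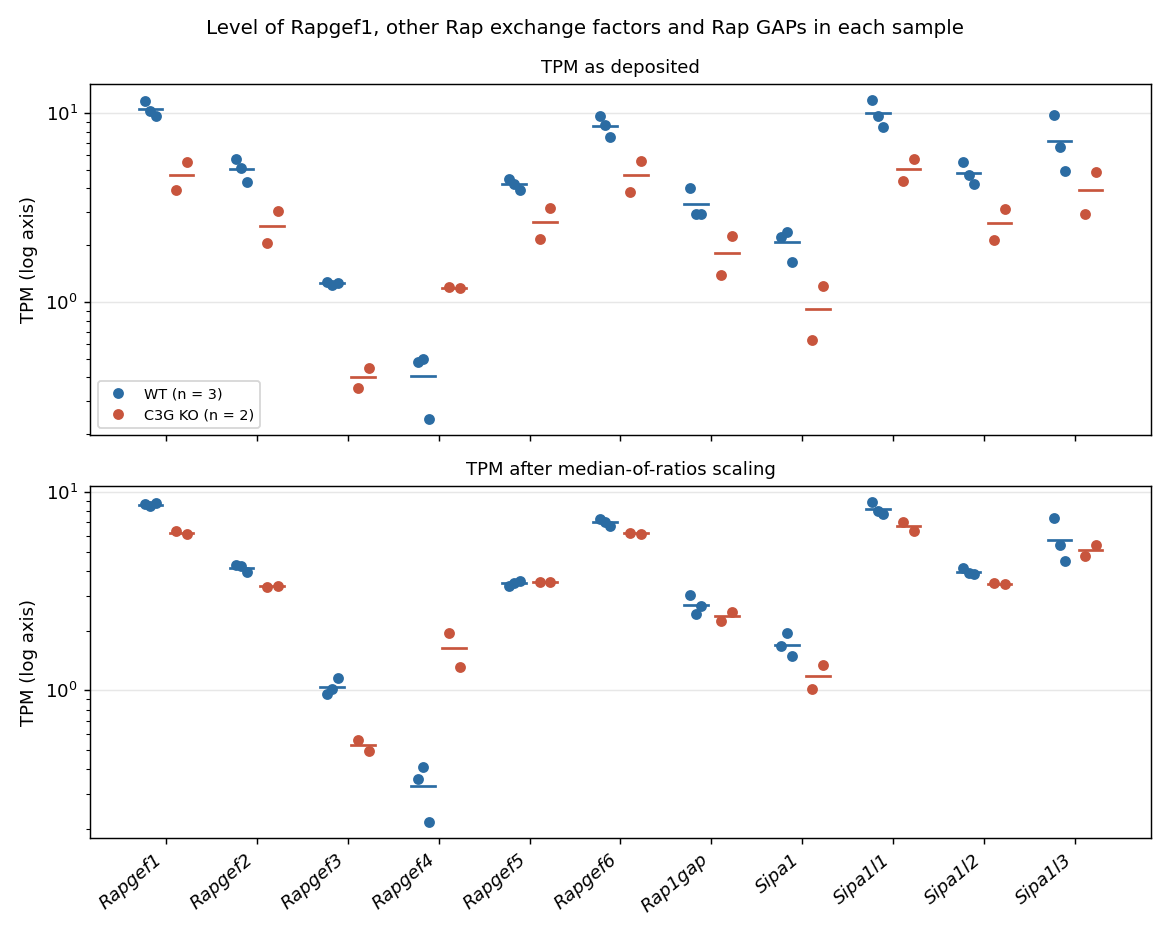
TPM of Rapgef1 and the 10 other genes in each sample on a log axis, as deposited (upper panel) and scaled (lower panel). Points are samples and lines are means of WT (n = 3) and C3G KO (n = 2). Rapgef4 is the only one of these genes with both C3G KO points above all WT points in both panels.

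Rapgef3 and Rapgef4 encode the exchange factors Epac1 and Epac2, which are opened by direct binding of cyclic AMP. They moved in opposite directions. Rapgef4 (ENSMUSG00000049044, chr2:71981240-72257474) had 0.48, 0.50 and 0.24 TPM in WT replicates 1 to 3 and 1.2 and 1.19 TPM in C3G KO replicates 1 and 2. Both C3G KO samples were above all WT samples, and they were nearly equal to each other as deposited. After scaling the mean was 0.329 ± 0.0998 TPM for WT (SD, n = 3) and 1.63 ± 0.443 TPM for C3G KO (SD, n = 2), which is 4.94 times the WT mean, and 2.94 times as deposited. The log2 fold change was 0.98 (limma adjusted p = 0.00363, SE 0.13, 95% confidence interval 0.66 to 1.29) scaled and 0.65 (adjusted p = 0.000629) as deposited. Fold changes were taken on log2(TPM + 1), which understates the change of a gene at so low a level. As deposited and without C3G KO replicate 1, the gene did not pass the threshold (log2 fold change 0.64, limma adjusted p = 0.0569).

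Rapgef3 (ENSMUSG00000022469, chr15:97744770-97767972) had 1.28, 1.24 and 1.27 TPM in WT and 0.35 and 0.45 TPM in C3G KO. The WT samples were close together, and both C3G KO samples lay far below them. After scaling the means were 1.04 ± 0.0983 TPM for WT (SD, n = 3) and 0.531 ± 0.0488 TPM for C3G KO (SD, n = 2), with a log2 fold change of -0.41 (limma adjusted p = 0.0150, SE 0.085). As deposited it was -0.69 (limma adjusted p = 0.000415). The C3G KO mean was 0.51 times the WT mean scaled and 0.317 times as deposited, and log2(TPM + 1) understates this change too. Rapgef3 passed the filter only through WT, where it was high. The scaled call was lost after quantile normalization (log2 fold change -0.20, limma adjusted p = 0.154) and with the length and GC correction (-0.19, 0.174). It was also lost without C3G KO replicate 1 or C3G KO replicate 2 (-0.45 and -0.38) and without WT replicate 2 (-0.42, adjusted p = 0.0556), with fold changes about as large.

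Within a sample, the ratio of Rapgef4 to Rapgef3 does not depend on the scaling. It was 0.375, 0.403 and 0.189 in WT and 3.43 and 2.64 in C3G KO, so Rapgef3 was the more abundant of the pair in every WT sample and Rapgef4 in both C3G KO samples. The sum of the pair was 1.76, 1.74 and 1.51 TPM in WT and 1.55 and 1.64 TPM in C3G KO as deposited, where the groups overlapped. After scaling the same sum was 1.32, 1.43 and 1.37 TPM in WT and 2.51 and 1.81 TPM in C3G KO, where they did not.

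Rapgef2 and Rapgef6 encode PDZ-GEF1 and PDZ-GEF2, exchange factors with a PDZ domain that act at cell junctions. Rapgef2 (ENSMUSG00000062232, chr3:79062516-79286517) had 5.73, 5.16 and 4.34 TPM in WT and 2.06 and 3.03 TPM in C3G KO as deposited. After scaling it had 4.29, 4.23 and 3.93 TPM in WT and 3.33 and 3.34 TPM in C3G KO. The C3G KO samples were below all WT samples on both scales. The scaled log2 fold change was -0.25 (limma adjusted p = 0.0332, SE 0.065), and -0.78 (adjusted p = 0.00262) as deposited. The deposited value did not pass without C3G KO replicate 1, WT replicate 1 or WT replicate 2 (limma adjusted p = 0.0620, 0.0518 and 0.0723). The scaled call was lost under 9 of the 16 alternatives that tested the gene. Among them were each C3G KO sample left out (-0.25 in both) and WT replicate 1 or 2 left out (-0.23 and -0.24, limma adjusted p = 0.0829 and 0.123). The length and GC correction was another (-0.074, 0.385).

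Rapgef6 (ENSMUSG00000037533, chr11:54522847-54699285), the most abundant of the 5 exchange factors, had 7.28, 7.07 and 6.75 scaled TPM in WT and 6.22 and 6.16 in C3G KO. The groups did not overlap, but the log2 fold change of -0.16 (95% confidence interval -0.31 to -0.0082, limma adjusted p = 0.0999) did not pass. Rapgef6 was at -0.35 with protein-coding scaling, where it passed (limma adjusted p = 0.0229), and at -0.054 (0.487) with the length and GC correction. As deposited it had 9.72, 8.62 and 7.45 TPM in WT and 3.85 and 5.58 TPM in C3G KO, a log2 fold change of -0.76 (adjusted p = 0.00663) that did not pass without C3G KO replicate 1, WT replicate 1 or WT replicate 2 (0.0693 to 0.105). Rapgef5 (ENSMUSG00000041992, chr12:117516479-117759737), which encodes an exchange factor also called MR-GEF, had 3.37, 3.46 and 3.57 scaled TPM in WT and 3.49 and 3.50 in C3G KO. Here both C3G KO samples lay within the WT range. Its log2 fold change was 0.0095 (95% confidence interval -0.14 to 0.16, adjusted p = 0.922) scaled and -0.52 (adjusted p = 0.0367) as deposited, so its sign depends on the scale. The deposited value passed without C3G KO replicate 2 but not without any other sample (limma adjusted p between 0.0870 and 0.19), and was -0.32 without C3G KO replicate 1.

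The GAPs share a catalytic Rap GAP domain but differ around it. Rap1gap (ENSMUSG00000041351, chr4:137664726-137729861) had 3.02, 2.41 and 2.66 scaled TPM in WT and 2.25 and 2.47 in C3G KO, and the groups overlapped. Sipa1 (ENSMUSG00000056917, chr19:5651185-5663707), which encodes SPA-1, had 1.66, 1.93 and 1.49 scaled TPM in WT and 1.02 and 1.35 in C3G KO, with no overlap. Sipa1l1 (ENSMUSG00000042700, chr12:82169320-82451786), the most abundant of the GAPs and a member of the SPA-1-like group with Sipa1l2 and Sipa1l3, had 8.85, 7.95 and 7.68 scaled TPM in WT and 7.05 and 6.36 in C3G KO.

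None of the 5 GAPs passed the adjusted threshold after scaling in limma, and 3 of them (Sipa1, Sipa1l1 and Sipa1l2) were lower at an unadjusted p under 0.05, as were 22.3% of all genes. The log2 fold changes were -0.30 for Sipa1 (adjusted p = 0.0793), -0.25 for Sipa1l1 (0.0655), -0.16 for Sipa1l2 (0.11), -0.14 for Rap1gap (0.299) and -0.13 for Sipa1l3 (0.608). Sipa1 was at -0.20 without C3G KO replicate 1, and Rap1gap at -0.087 without C3G KO replicate 1 and -0.074 without WT replicate 1. With scaling to protein-coding TPM, Sipa1, Sipa1l1 and Sipa1l2 were lower past the threshold (limma adjusted p = 0.0338, 0.0204 and 0.0295), where 29.8% of all genes were lower. With the length and GC correction the fold changes of Rap1gap, Sipa1l2 and Sipa1l3 turned to 0.062, 0.14 and 0.14. Those of Sipa1 and Sipa1l1 shrank to -0.025 and -0.051 with it (limma adjusted p = 0.868 and 0.659). As deposited all 5 were lower, with log2 fold changes between -0.86 (Sipa1l1) and -0.62 (Rap1gap) beside the median of -0.55 over all tested genes, of which 56.8% were lower. None of the 5 passed as deposited without WT replicate 2 (limma adjusted p between 0.066 and 0.104), where 17% of all genes were lower. Sipa1l1 alone of them passed without C3G KO replicate 1 and Sipa1 alone without WT replicate 1, where 19.8 and 20.6% of all genes were lower. All 5 passed without C3G KO replicate 2 or WT replicate 3, where 81.7 and 40.4% were lower. Without C3G KO replicate 1 the deposited fold changes of Rap1gap and Sipa1l3 were -0.40 and -0.42.

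Sipa1l2 (ENSMUSG00000001995, chr8:125418063-125569808) had 4.13, 3.89 and 3.83 scaled TPM in WT and 3.46 and 3.42 in C3G KO, with no overlap. Sipa1l3 (ENSMUSG00000030583, chr7:29320372-29518641) had 7.36, 5.40 and 4.47 scaled TPM in WT, and the C3G KO values of 4.75 and 5.39 lay inside that range. Without WT replicate 1, its highest sample, the log2 fold change of Sipa1l3 was 0.035 (limma adjusted p = 0.842), and it was between -0.27 and -0.056 without C3G KO replicate 1, C3G KO replicate 2 or WT replicate 3.

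**Figure D2:**
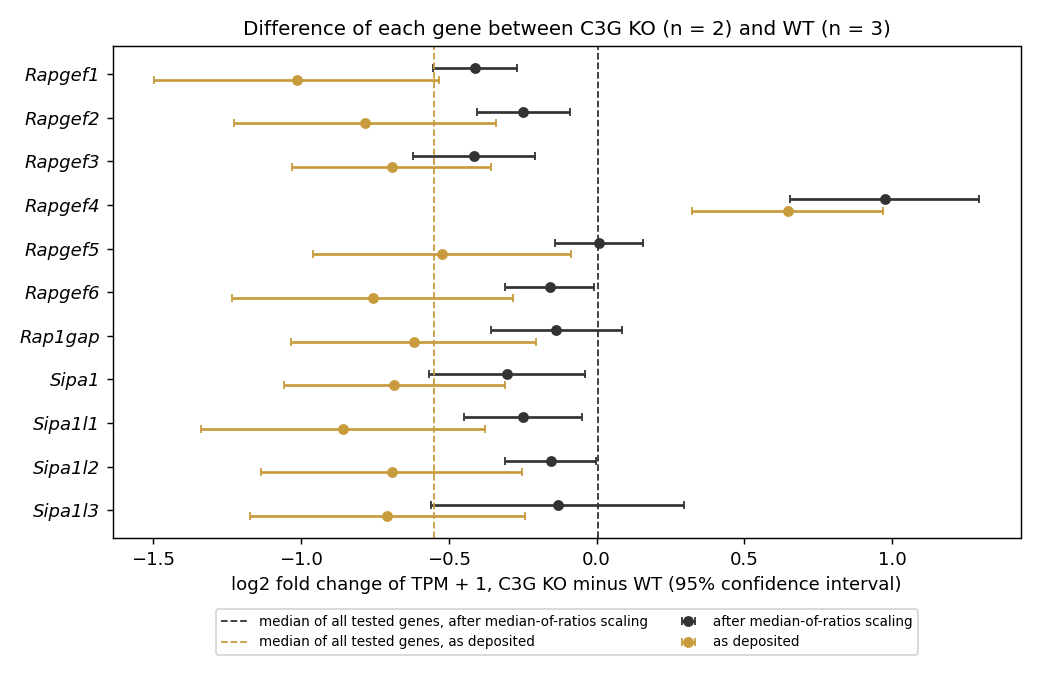
Log2 fold change of TPM + 1 (C3G KO minus WT) for Rapgef1 and the 10 other genes, with 95% confidence intervals from limma, scaled in black and as deposited in yellow. Dashed lines are the medians of all tested genes on each scale, 0.0052 and -0.55. Rapgef4 lies to the right of both lines on both scales, and Rapgef5 lies near the median on both.

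TPM allow levels to be compared between genes, here summed over the coding and non-coding transcripts of each gene. In WT the order of mean scaled TPM was Sipa1l1 (8.16), Rapgef6 (7.03), Sipa1l3 (5.74), Rapgef2 (4.15), Sipa1l2 (3.95), Rapgef5 (3.47), Rap1gap (2.70), Sipa1 (1.69), Rapgef3 (1.04) and Rapgef4 (0.329). Of neighbours in this order, the samples of Rapgef6 and Sipa1l3 and those of Rapgef2 and Sipa1l2 overlapped and the others did not. As deposited the order was the same, but all neighbours from Sipa1l1 down to Rap1gap overlapped. In C3G KO the order was Sipa1l1 (6.70), Rapgef6 (6.19), Sipa1l3 (5.07), Rapgef5 (3.50), Sipa1l2 (3.44), Rapgef2 (3.34), Rap1gap (2.36), Rapgef4 (1.63), Sipa1 (1.18) and Rapgef3 (0.531). Among scaled values only Rapgef4 and Sipa1 overlapped there as neighbours, and as deposited so did all from Sipa1l1 down to Rap1gap. Within single samples, where the scale does not matter, the WT order held in all 3 WT samples for each pair of neighbours except Rapgef6 and Sipa1l3, where it held in 2. The C3G KO order held in both C3G KO samples except for Rapgef4 and Sipa1, where it held in 1. With 2 samples the spread is poorly known.

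Rapgef4 made up 2.21, 2.53 and 1.39% of the summed TPM of the 5 exchange factors in WT and 12.5 and 8.87% in C3G KO. Rapgef3 made up 5.90, 6.28 and 7.37% in WT and 3.64 and 3.35% in C3G KO. The share of Rapgef2 was 25.9 ± 0.643% (SD, n = 3) in WT and 22.0 ± 0.823% (SD, n = 2) in C3G KO, and that of Rapgef6 43.9 ± 0.802% and 40.8 ± 1.10%. Rapgef6 was the largest part in all 5 samples. Among the GAPs, Sipa1l1 held 36.8 ± 1.40% of the sum in WT and 35.8 ± 3.22% in C3G KO, a difference smaller than the spread. These shares are given as descriptions, with no test. An exact two-sided permutation test of 3 against 2 samples, on the absolute difference of means, gives no p below 0.1.

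The ratio of summed GAP to summed exchange factor TPM was 1.54, 1.33 and 1.29 in WT and 1.19 and 1.28 in C3G KO. Both sums include transcripts not annotated as protein-coding. The groups did not overlap, but the gap between the lowest WT and the highest C3G KO sample was smaller than the spread within either group. With Rapgef1 counted among the exchange factors the ratio was 1.004, 0.876 and 0.827 in WT and 0.846 and 0.907 in C3G KO. The groups overlapped. In C3G KO this ratio counts RNA of the disrupted gene. The paper detected neither full-length nor truncated C3G protein in its knockout clones, so the ratio is not one of working exchange factors. Rapgef1 alone held 34.7, 34.3 and 35.9% of the exchange factor TPM in WT and 29.0 and 29.3% in C3G KO.

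**Figure D3:**
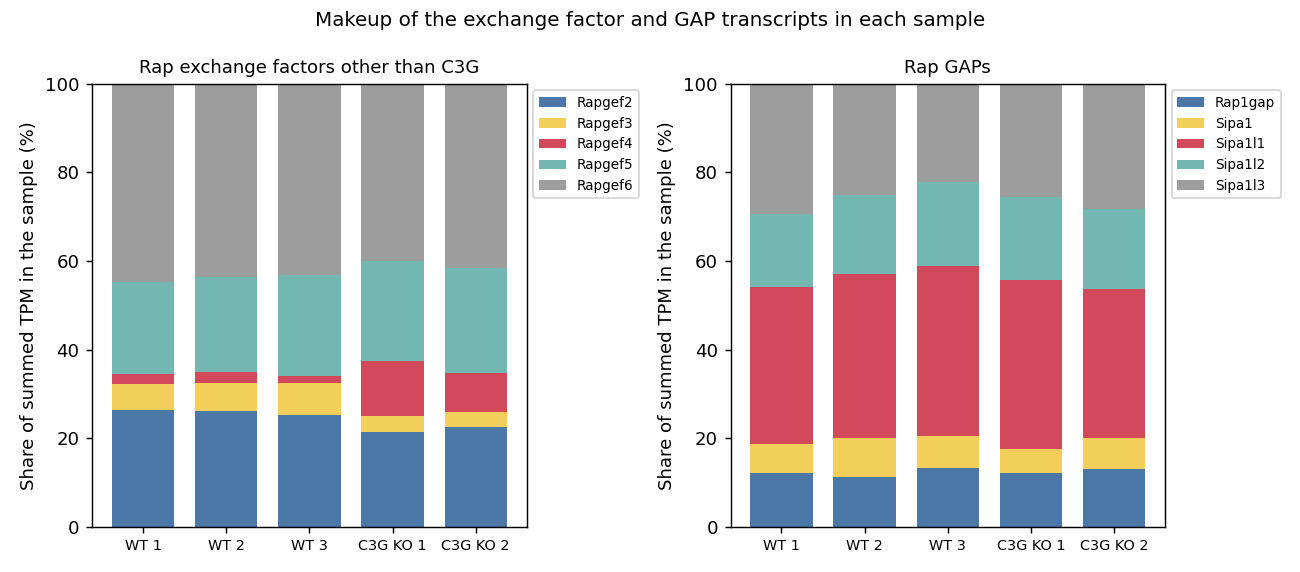
Share of each gene in the summed TPM of the 5 Rap exchange factors other than C3G (left) and of the 5 Rap GAPs (right) in each sample, in percent. Rapgef4 takes 1.39 to 2.53% in WT and 8.87 to 12.5% in C3G KO, while the share of each GAP overlaps between the groups.

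The table holds 113 annotated transcripts of the 10 genes, of which 98 were above 0 in at least 1 sample and 11 passed the filter. None of the 11 passed the adjusted threshold in limma after scaling (smallest adjusted p = 0.0775), and 2 were lower and none higher at an unadjusted p under 0.05. Among all 25166 transcripts tested, 5.07% were lower and 3.35% higher at an adjusted p under 0.05, and 13.7 and 13.1% at an unadjusted p under 0.05. As deposited 5 of the 11 were lower at an adjusted p under 0.05, beside 22.9% of all transcripts. Single transcripts led some of the genes. ENSMUST00000195708 held 81.2% of the Rapgef2 TPM in WT and 87.8% in C3G KO, and ENSMUST00000212168 held 88.8 and 89.7% of Sipa1l2. ENSMUST00000102743 held 53.2 and 54.1% of Rapgef6. The other genes were spread over more transcripts, with ENSMUST00000222714 of Sipa1l1 at 38.6 and 32.8%, ENSMUST00000097837 of Rap1gap at 32.5 and 48.2% and ENSMUST00000220781 of Rapgef5 at 27.5 and 27.0%. Estimates for overlapping transcripts share reads and are less certain than the sum over a gene.

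Rapgef4 lay below the level set for describing transcripts, and its transcripts were examined after its values were seen. Its 11 transcripts were all above 0 in some sample, and protein-coding ones held 22.1% of its TPM in WT and 32.2% in C3G KO. The following sums of its transcripts are as deposited. The 4 that begin between 71981240 and 71981287, at the annotated start of the gene, summed to 0.13, 0.04 and 0.02 TPM in WT. In C3G KO they summed to 0.08 and 0.40 TPM, and the groups overlapped. The 2 that begin inside the gene between 72054604 and 72054985 summed to 0.14, 0.18 and 0.07 TPM in WT and 0.42 and 0.54 TPM in C3G KO, with no overlap. The remaining 5 summed to 0.21, 0.28 and 0.15 TPM in WT and 0.70 and 0.25 TPM in C3G KO, with overlap. Scaling divides the samples by 1.34, 1.22 and 1.10 in WT and by 0.619 and 0.906 in C3G KO. After this division each of these sums is higher in C3G KO without overlap, so the overlap as deposited sets no start apart. The table is rounded to 2 decimals, so these values rest on few steps of rounding. Antisense genes lie within Rapgef2, Rapgef3, Rapgef4 and Rap1gap. Of those within Rapgef4, Rapgef4os3 had the highest single value, with 0.02, 0 and 0.01 TPM in WT and 0.02 and 0.06 TPM in C3G KO. Rapgef4os2 had 0.01, 0.03 and 0 TPM in WT and 0.04 and 0.01 TPM in C3G KO.

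The RefSeq promoter windows (GRCm38.p6), 300 bases around a gene start, were matched for all 10 genes, in 20 windows. Their GC content ranged from 39.3 to 78.7% with a median of 66.8%, beside a median of 52.7% over 32851 windows. The letters GGGCGG, known as the GC box, were searched on both strands and found in 11 of the 20 windows, of 8 genes, while 35.7% of all windows hold them. The windows are not independent, since 7 of the 20, with 4 of the 11, belong to Rap1gap and some of these overlap. The windows of Rapgef3 and Rapgef4 are shown because these paralogs moved in opposite directions. The Rapgef3 window lies at chr15:97767617-97767916 on the minus strand and the Rapgef4 window at chr2:71980965-71981264 on the plus strand, and capitals mark GGGCGG or its reverse complement.
Rapgef3: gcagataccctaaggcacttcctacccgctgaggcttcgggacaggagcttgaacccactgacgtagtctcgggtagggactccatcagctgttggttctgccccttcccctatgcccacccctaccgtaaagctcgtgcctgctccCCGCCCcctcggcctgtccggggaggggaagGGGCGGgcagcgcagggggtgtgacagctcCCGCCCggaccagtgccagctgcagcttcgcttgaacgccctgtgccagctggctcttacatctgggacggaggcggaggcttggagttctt
Rapgef4: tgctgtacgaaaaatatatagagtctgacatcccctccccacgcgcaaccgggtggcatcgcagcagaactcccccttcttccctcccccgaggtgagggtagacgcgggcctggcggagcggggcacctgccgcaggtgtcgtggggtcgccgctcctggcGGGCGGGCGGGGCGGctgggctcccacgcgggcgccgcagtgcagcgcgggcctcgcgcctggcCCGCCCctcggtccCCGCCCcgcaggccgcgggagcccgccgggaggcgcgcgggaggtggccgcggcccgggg
The Rapgef3 window had a GC content of 65.0% and 3 matches, and the Rapgef4 window 76.7% and 5 matches, some of which overlap. The letters TGACG, found on either strand in 20.8% of all windows, occurred once in the Rapgef3 window and were not in the Rapgef4 window. The Rapgef4 window covers the annotated start of the gene and not the start inside it.

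The GTPases themselves were all tested. Of the 5 Rap genes, 3 were lower and none higher in C3G KO after scaling (1 higher at an unadjusted p under 0.05 in limma), and 4 were lower as deposited, beside 16.6% lower scaled and 56.8% lower as deposited among all genes tested. As deposited 3, 5, 3, 1 and 4 were lower without C3G KO replicate 1, C3G KO replicate 2, WT replicate 1, WT replicate 2 and WT replicate 3, beside 19.8, 81.7, 20.6, 17 and 40.4% of all genes. Their median log2 fold change was -0.27 scaled and -0.77 as deposited. Rap2b had 6.21, 5.37 and 4.52 TPM in WT and 1.02 and 2.24 TPM in C3G KO as deposited, with log2 fold changes of -0.83 scaled (limma adjusted p = 0.00533) and -1.31 as deposited (1.07e-07). Rap2c had log2 fold changes of -0.84 as deposited (limma adjusted p = 0.00146, and 0.0543 without WT replicate 2) and -0.29 scaled (0.0232). The scaled value did not pass with the length and GC correction (-0.26, limma adjusted p = 0.0746), after quantile normalization (-0.23, 0.0538) or with no filter (-0.29, 0.0582). It also did not pass without WT replicate 2 or WT replicate 3 (-0.29 and -0.26, adjusted p = 0.0825 and 0.0577). The same held without C3G KO replicate 1 or C3G KO replicate 2 (-0.29 and -0.30). Rap1b, the most abundant, had a log2 fold change of 0.18 (adjusted p = 0.0655) scaled and -0.48 (adjusted p = 0.0951) as deposited, so its sign depends on the scale. The deposited value was -0.23 (limma adjusted p = 0.263) without C3G KO replicate 1 and -0.74 (0.0044) without C3G KO replicate 2, where it passed.

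Of 5 further enzymes with exchange activity on Rap, 2 passed the filter and neither passed the test on either scale with all samples, nor at an unadjusted p under 0.05 in limma. Rasgrp2, which answers to calcium, was the most abundant of them. It had 23.3, 24.5 and 21.8 TPM in WT and 12.6 and 20.3 TPM in C3G KO as deposited. That is more TPM than any of the 10 genes had. The mean length of its transcripts, weighted by TPM, was 958 bases, beside 1732 (Rapgef4) to 6559 (Rapgef2) bases for the 10 genes. The TPM of Rasgrp2 thus rest largely on short transcripts, and how much is full-length message was not examined. Its log2 fold change was 0.16 (limma adjusted p = 0.218) scaled and -0.51 (adjusted p = 0.0819) as deposited. The deposited value was -0.18 (limma adjusted p = 0.299) without C3G KO replicate 1 and -0.83 (0.00238) without C3G KO replicate 2, where it passed. The scaled value was 0.092 without C3G KO replicate 2 and 0.097 without WT replicate 1, and neither passed. Of 6 further GAPs that act on Rap, 4 were tested, and after scaling 1, Rasa4, was higher and none lower (none at an unadjusted p under 0.05 in limma either), while 3 were lower as deposited, beside 14.1% higher scaled and 56.8% lower as deposited among all genes. As deposited 0, 1, 0, 0 and 3 were lower without C3G KO replicate 1, C3G KO replicate 2, WT replicate 1, WT replicate 2 and WT replicate 3, beside 19.8, 81.7, 20.6, 17 and 40.4% of all genes. One of the 3, Rasa3, named after its values were seen, reached the minimum for testing only in WT. Rasa4 had 2.70, 2.01 and 2.08 TPM in WT and 2.42 and 2.73 TPM in C3G KO as deposited, where the groups overlapped. Its log2 fold change was 0.64 (adjusted p = 0.00855) scaled and 0.14 (adjusted p = 0.546) as deposited. Garnl3, the most abundant of these GAPs, had log2 fold changes of -0.051 (adjusted p = 0.665) scaled and -0.62 (adjusted p = 0.0197) as deposited, which did not pass without C3G KO replicate 1 (-0.38, 0.192), WT replicate 1 (0.171) or WT replicate 2 (0.157). With a sample left out its scaled value was between -0.11 and -0.0037, and the deposited value of Rasa4 between 0.074 and 0.23, none past the threshold.

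Of 13 Rap effectors, 9 were tested, and 4 were lower and none higher after scaling (none at an unadjusted p under 0.05 in limma either), with 7 lower as deposited, beside the same 16.6% and 56.8% lower among all genes. As deposited 4, 8, 3, 3 and 6 were lower with the same samples left out in the same order, beside 19.8, 81.7, 20.6, 17 and 40.4% of all genes. Of the 9 tested, 2 reached the minimum only in WT. Their median log2 fold change was -0.19 scaled and -0.74 as deposited. Arap3, which binds active Rap, had 2.71, 2.61 and 2.42 TPM in WT and 0.46 and 0.87 TPM in C3G KO, with log2 fold changes of -0.75 scaled (limma adjusted p = 0.00181) and -1.11 as deposited (1.89e-07). It is one of the genes at the minimum only in WT. Afdn, which encodes the junction protein afadin, had 46.9, 40.5 and 35.1 TPM in WT and 14.7 and 22.3 TPM in C3G KO, with log2 fold changes of -0.45 scaled (limma adjusted p = 0.00644) and -1.12 as deposited (0.00027). Map4k4, a kinase and the most abundant of the effectors, had log2 fold changes of -0.99 as deposited (limma adjusted p = 0.00156, and 0.0558 and 0.0624 without WT replicate 1 and WT replicate 2) and -0.31 scaled (0.0206). The scaled value did not pass with the length and GC correction (-0.18, limma adjusted p = 0.0822) or without C3G KO replicate 1 (-0.26). It also did not pass without WT replicate 2 or WT replicate 3 (-0.31 and -0.30, adjusted p = 0.0943 and 0.054).

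Adenylyl cyclases make the cyclic AMP that opens Epac1 and Epac2. Of 9 cyclase genes 3 were tested, and after scaling 2 were lower and none higher (none at an unadjusted p under 0.05 in limma either), with all 3 lower as deposited, where 16.6% of all genes were lower scaled and 56.8% as deposited. As deposited 1, 3, 2, 1 and 3 were lower without C3G KO replicate 1, C3G KO replicate 2, WT replicate 1, WT replicate 2 and WT replicate 3, beside 19.8, 81.7, 20.6, 17 and 40.4% of all genes. Adcy6 had 1.18, 1.53 and 1.22 TPM in WT and 0.21 TPM in each C3G KO sample, with log2 fold changes of -0.69 scaled (limma adjusted p = 0.00589) and -0.93 as deposited (7.59e-07). It passed the filter only through WT, and its call was lost after quantile normalization (-0.40, adjusted p = 0.0538). Adcy1, the most abundant, had 2.83, 2.60 and 2.26 TPM in WT and 0.92 and 1.46 TPM in C3G KO. Its log2 fold change was -0.71 as deposited (limma adjusted p = 0.00193, and 0.0685 and 0.0519 without C3G KO replicate 1 and WT replicate 2). The scaled value was -0.28 (limma adjusted p = 0.0256) and turned to 0.035 (0.748) with the length and GC correction. It did not pass after quantile normalization (-0.21, 0.0720), with no filter (-0.28, 0.0716) or without any one of the 5 samples. With a sample left out it was between -0.32 and -0.25 (adjusted p between 0.0502 and 0.0986 for the WT samples).

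The pattern of Sipa1l1, the most abundant of the 10 genes in WT, was compared with all tested genes by the root mean square difference of centred log2(scaled TPM + 1) over the 5 samples. The nearest were Vcan (0.00978), Cdc42bpa (0.0166) and Clvs2 (0.0192), where the median over all genes was 0.193.

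The ES cell label was checked against markers. All 10 ES cell markers were tested, and their summed TPM as deposited was 2259, 2379 and 2324 in WT and 1790 and 2344 in C3G KO, with Dppa5a the most abundant, and the groups overlapped. After scaling the sum was 1692, 1950 and 2105 TPM in WT and 2893 and 2587 TPM in C3G KO, higher without overlap. Dppa5a alone had scaled means of 1147 TPM in WT and 1868 TPM in C3G KO. Of all genes, 29.5% were higher without overlap on this scale. Of the 10 markers 2 were called higher (Dppa5a and Fgf4) and 1 lower (Klf4), beside 14.1% higher and 16.6% lower among all genes. Pou5f1 had 357, 371 and 400 TPM in WT and 230 and 298 TPM in C3G KO as deposited, and 268, 304 and 362 TPM against 371 and 329 TPM after scaling, so its direction depends on the scale. Markers of other cell types summed to far less, and none was at 0 in all samples. After scaling, the 6 primitive endoderm markers summed to 3.72, 3.58 and 3.44 TPM in WT and 5.74 and 7.73 TPM in C3G KO, led by Dab2, and as deposited to 4.96, 4.37 and 3.80 against 3.55 and 7.0 TPM, where the groups overlapped. The 4 mesoderm markers summed to 5.06, 4.02 and 4.56 TPM in WT and 1.16 and 1.76 TPM in C3G KO, led by T. The 6 fibroblast markers, led by Thy1, summed to 4.37, 4.52 and 3.65 TPM in WT and 1.70 and 1.63 TPM in C3G KO. The 4 trophoblast markers, led by Eomes, summed to 3.61, 3.25 and 2.94 TPM in WT and 1.79 and 2.46 TPM in C3G KO. Eomes itself had a scaled log2 fold change of 0.021 (limma adjusted p = 0.904). The lower sum came with Cdx2 (scaled means of 0.804 and 0.0850 TPM) and Hand1 (0.550 and 0.0875 TPM, not tested). The 4 neural markers, led by Tubb3, summed to 19.8, 19.3 and 20.8 TPM in WT and 27.6 and 25.9 TPM in C3G KO. As deposited the neural sum was 26.5, 23.6 and 23.0 TPM in WT and 17.1 and 23.5 TPM in C3G KO, with overlap, and the sums of the mesoderm, fibroblast and trophoblast markers were again lower in C3G KO. Of those tested, Dab2 and Tubb3 were higher and Cdx2, T, Nes, Col1a1 and Thy1 lower after scaling, beside the same 14.1% and 16.6% of all genes. As deposited these 5 were again lower, beside 56.8% of all genes, while Dab2 and Tubb3 did not pass. Cdx2 and Col1a1 reached the minimum for testing only in WT. Their part in the differences of the Rap genes was not tested.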

How the data were processed

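RNA of 3 WT and 2 C3G KO samples was measured. The authors deposited TPM for 142647 Ensembl transcripts, rounded to 2 decimals. The submitters' notes name STAR 2.5.1b, RSEM 1.2.31 and GRCm38. Read counts are not used here, so a count test and counting errors could not be given, and limma on log values stood in for the test of the study. TPM were summed by gene symbol with GENCODE M21 (141524 transcripts matched, 1123 did not). The 12518 genes that reached 1 TPM in 2 or more samples were tested with limma 3.58.1 (R 4.3.3) on log2(TPM + 1) with its variance trend. Tests were two-sided, p-values were adjusted over all genes (Benjamini-Hochberg) and the threshold was 0.05. The prior degrees of freedom were 3.11 after scaling and infinite as deposited, so p-values as deposited do not use a gene's own spread. The study calls the samples of each group independent, and neither it nor the labels say whether they were separate cultures, clones or passages. P-values after scaling rest partly on the spread of a gene between these samples, and those as deposited only on the variance trend over all genes.

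The genes and gene lists were chosen with earlier results of these data known. Named genes are the 10 members, Rapgef1, and from each list the most abundant gene and up to 2 rises and 2 falls past the threshold. Transcripts were considered for members with at least 1 TPM in WT and a share of at least 10% in either group. Alternatives covered scaling, pseudocount, filter, trend, length and GC, replicate numbers and each sample left out. Leaving out samples from the values as deposited (also for lists and all genes), and all alternatives for list genes, were added after seeing the data. Figures were made with matplotlib 3.10.9.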

Additional observations from a re-analysis of the deposited data

How the results depend on the processing

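Rapgef4 was higher and past the threshold under all 15 alternatives to the scaled test that included it (log2 fold change 0.31 to 2.01, adjusted p 0.000629 to 0.0254 from limma). Except with no filter, Rapgef4 entered these tests only through the C3G KO samples, where it was high, so these passes support nothing. A filter of 5 TPM left 4 of the 10 genes, not Rapgef4. There 0 were higher and 1 lower, beside 17.9% lower among all 7525 genes left. The count of lower genes, 2 after scaling, was 9 as deposited, 6 after scaling to protein-coding TPM, 1 with no filter, and 0 after quantile normalization or the length and GC correction (2 and 0 at an unadjusted p under 0.05 in limma). Of all genes tested, 16.6% were lower after scaling, 5.74% of 33039 with no filter, 14.6% after quantile normalization and 14.2% with the length and GC correction. The count of lower genes was 1, 0 and 2 without WT replicate 1, WT replicate 2 and WT replicate 3. In these fits 13.3, 10.6 and 14.7% of all genes were lower, and 1 of the 10 genes was higher in each. A C3G KO sample left alone was assumed to vary like the WT samples. As deposited, leaving out samples, chosen after seeing the data, gave 1 to 9 lower and 0 to 1 higher genes, with 0 higher without C3G KO replicate 1, and 1 lower without WT replicate 2. The cause of these changes was not tested.

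Of all genes, 3843 were called after scaling (1760 higher, 2083 lower), 7290 as deposited (181 and 7109), 2470 of the fewer genes left by a filter of 5 TPM, and 2213 (lowest, without WT replicate 2) to 3403 with a sample left out. Scaling to protein-coding TPM gave 707 higher and 3732 lower. Member transcripts called rose from 0 to 5, all lower, as deposited, where 22.9% of all transcripts tested were lower.

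Signs turned in some results that were mostly not called, and the cause was not tested. Rapgef5 was at -0.52 as deposited, -0.16 with protein-coding scaling and -0.0060 to 0.026 with a sample left out (lowest without WT replicate 1). Sipa1l3 was at -0.27 to 0.035 with a sample left out (highest without WT replicate 1). Rap1b and Rasgrp2 were at -0.48 and -0.51 as deposited and at -0.032 and -0.055 with protein-coding scaling. With the length and GC correction, Rap1gap was at 0.062, Sipa1l2 at 0.14, Sipa1l3 at 0.14, Garnl3 at 0.031 and Adcy1 at 0.035. Across genes, which are no replicates, fold changes and transcript length had a Spearman correlation of -0.31 before this correction and 0.028 after it. The ratio of GAP to exchange factor TPM differed by -0.15 (C3G KO minus WT), by -0.20 to -0.075 with a sample left out, and by -0.026 with Rapgef1 counted.

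The labels do not say that shared replicate numbers mark a batch, and the deviations of same-numbered samples correlated at -0.017. The library name of C3G KO replicate 2 carries the number 3, while the block joins it with WT replicate 2. A replicate block gave 3305 called genes, with Rapgef4 higher and Rapgef3 and Sipa1 (-0.36, adjusted p = 0.0423 from limma) lower. Of all genes, 14.5% were lower with the block. Rapgef2 (-0.28, limma adjusted p = 0.0698), Rap2c (-0.26, 0.0855), Map4k4 (-0.30, 0.0762) and Adcy1 (-0.29, 0.0696) lost their calls with the block. Their fold changes stayed close to those without it. With the block and the length and GC correction together 0 members were lower, beside 10.7% of the 12514 genes in that fit. There Adcy6 was at -0.44 (limma adjusted p = 0.105), and Rap1gap, Sipa1l2, Sipa1l3 and Adcy1 were at 0.066, 0.15, 0.022 and 0.055. The unknown depth and 2 C3G KO samples limit the precision.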
